A study of Homo sapiens with 16 samples.

Results

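The genes described here are 9 human genes of the interferon response and of cytoplasmic RNA sensing: ISG15, IFIT1, IFIT2, IFIT3, IFI6, RIGI, IFIH1, OAS1 and MX1. They were chosen by symbol, with earlier results of these data known, out of 58302 gene identifiers in the count tables, and all 9 were found (RIGI carried the symbol DDX58 in older annotations). The question they answer is whether an innate response to transfected RNA was present in the cells in which Gemin5 had been silenced. Gemin5 is an RNA-binding protein of the survival of motor neuron complex that also associates with ribosomes. The cells were HEK293, a human embryonic kidney line transformed with adenovirus DNA. RNA was sequenced from cytoplasmic lysates (Input) and from pooled polysome fractions of sucrose gradients (Polysome), each from control cells (Ctrl) and from cells transfected with a Gemin5 siRNA by Lipofectamine 2000 (siRNAG5), with 4 libraries per group and 16 in all. The labels call the Ctrl cells untreated, whereas their protocol text and the study's methods describe a control siRNA, so with these files a response to transfection itself and a response to the loss of Gemin5 cannot be told apart, and a response shared by Ctrl and siRNAG5 cells would not appear in the comparison. The study's methods call the 4 libraries of a group biological replicates, the labels do not say whether they were separate cultures, and the p-values measure the spread between these libraries.

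Mammalian cells detect foreign RNA in the cytoplasm with the helicases RIG-I, encoded by RIGI, and MDA5, encoded by IFIH1. Both signal through the mitochondrial adaptor MAVS to the transcription factors IRF3, IRF7 and NF-kB, which switch on type I and type III interferon genes. Secreted interferon then acts through its receptors and the JAK and STAT proteins on a DNA element called the interferon-stimulated response element, and several of the 9 genes are among the standard readouts of that step. Short double-stranded RNAs can trigger this pathway in some cells, depending on their ends, length and sequence.

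The duplexes named in the protocol are shown because the question concerns the transfected RNA. Each strand was 21 nucleotides long, written 5′ to 3′ with the 2-base UU overhang in capitals.
Gemin5 siRNA: ccuuaaucaagaagagaaaUU
control siRNA: auguauuggccuguauuagUU
The Gemin5 strand held 5 U bases and no UG or GU step, and the control strand held 10 U bases and 6 such steps. The GC content was 28.6% for the Gemin5 strand and 33.3% for the control strand.

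The promoters of the 9 genes were searched for the core of the response element, which was taken as TTTC, any 2 bases and TTTC again (GAAA, any 2 bases and GAAA on the other strand), with overlapping matches kept. The windows were those of RefSeq on GRCh38.p14, from 250 bases before to 50 bases after each annotated start. Windows were present for 8 of the 9 genes (IFIT2 had no entry), and 6 of these genes had at least 1 match: ISG15, IFIT1, IFIT3, IFI6, IFIH1 and MX1. RIGI and OAS1 had none in their windows. A match was found in 3.57% of all 35116 promoter windows. For the 3 members with the highest levels, all 3 matches of IFI6 and 1 of the 2 matches of ISG15 and of IFIT1 are shown as 30-base stretches in the direction of transcription, because IFI6 on the one hand and ISG15 and IFIT1 on the other differed in their response below. Capitals mark the 1 match that a line shows; the ISG15 stretch also holds its second match, which overlaps the first and is left in lower case where it does not.
IFI6, chr1:27672329-27672358, minus strand: ggagagagggGAAAATGAAActctgcagag
IFI6, chr1:27672288-27672317, minus strand: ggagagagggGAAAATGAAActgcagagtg
IFI6, chr1:27672266-27672295, minus strand: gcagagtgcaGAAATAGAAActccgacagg
ISG15, chr1:1013374-1013403, plus strand: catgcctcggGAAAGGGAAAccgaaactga
IFIT1, chr10:89392510-89392539, plus strand: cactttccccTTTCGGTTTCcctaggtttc
The matches shown for IFI6 ended between 147 and 84 bases before the annotated start, that of ISG15 at 104 bases and that of IFIT1 at 94 bases before it. A match is a description of letters and does not show that a factor was bound.

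The libraries held between 11145324 and 24511299 reads assigned to genes, and the Input siRNAG5 libraries (18411789 to 24511299) were deeper than the Input Ctrl libraries (13347866 to 18053614). Levels are given as CPM, the usual count unit scaled to the total reads of a library, after TMM scaling, a correction for differences in library composition. GEMIN5 fell in siRNAG5 cells, from 17.9 ± 2.32 CPM (SD, n = 4) to 6.72 ± 0.529 CPM in Input and from 7.44 ± 1.56 to 2.65 ± 0.495 CPM in Polysome. The log2 fold changes (log2 FC) of GEMIN5 were -1.40 and -1.44 (SE 0.12 and 0.21, adjusted p = 3.1e-10 and 0.00477, edgeR quasi-likelihood test). All 7 markers used for HEK293 had reads in every library. The summed level of 23 liver markers was 164 and 144 CPM in Input Ctrl 3 and 4 and 87.6 to 182 CPM in the 4 Polysome Ctrl libraries, but 3.28 and 1.35 CPM in Input Ctrl 1 and 2 and 0.577 to 1.865 CPM in all siRNAG5 libraries, where 11 of the 23 were at 0, APOB and SERPINA1 among them. Of 12 blood and immune markers, 9 to 11 had reads in each Polysome Ctrl library against 5 or 6 in each Polysome siRNAG5 library, and HBB and PTPRC were at 0 in all siRNAG5 libraries. The Ctrl libraries with liver markers therefore stood apart from the others. All 4 Polysome Ctrl libraries are among them, so in every Polysome comparison of siRNAG5 with Ctrl their presence and the condition cannot be told apart.

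The 9 genes fell into an abundant and a barely detected set. Per kilobase of summed exon length, so that genes can be compared, IFI6 had the highest level in Input Ctrl at 15.8 ± 0.725 CPM per kb (SD, n = 4), followed by ISG15 at 9.32 ± 0.597 and IFIT1 at 1.61 ± 0.194. RIGI came next at 0.0602 ± 0.0206, then IFIT3 at 0.0503 ± 0.0426, IFIH1 at 0.0254 ± 0.0296, IFIT2 at 0.0141 ± 0.0171 and MX1 at 0.00387 ± 0.00502, and OAS1 had no read. The gaps from IFI6 to ISG15, from ISG15 to IFIT1 and from IFIT1 to RIGI were larger than the spread between libraries, whereas no neighbours from RIGI down to MX1 were separated by more than 1 SD. In Input siRNAG5 the first 3 had the same order, at 22.5 ± 2.66, 8.42 ± 0.722 and 1.38 ± 0.255 CPM per kb. With the length of the canonical transcript in place of the summed exons, a length chosen after the data were seen, the levels in Input Ctrl were 18.2, 12.7 and 1.73 CPM per kb for IFI6, ISG15 and IFIT1. The level of MX1 depended more on this choice, since its summed exons (17984 bases) far exceed its canonical transcript (2776 bases). With the canonical length MX1 was at 0.0251 ± 0.0325 CPM per kb in Input Ctrl, above IFIT2 at 0.0180 ± 0.0218, a gap within the spread. OAS1 also has summed exons (13021 bases) far longer than its canonical transcript (1631 bases), but with no Input read its level was 0 with either length.

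**Figure D1:**
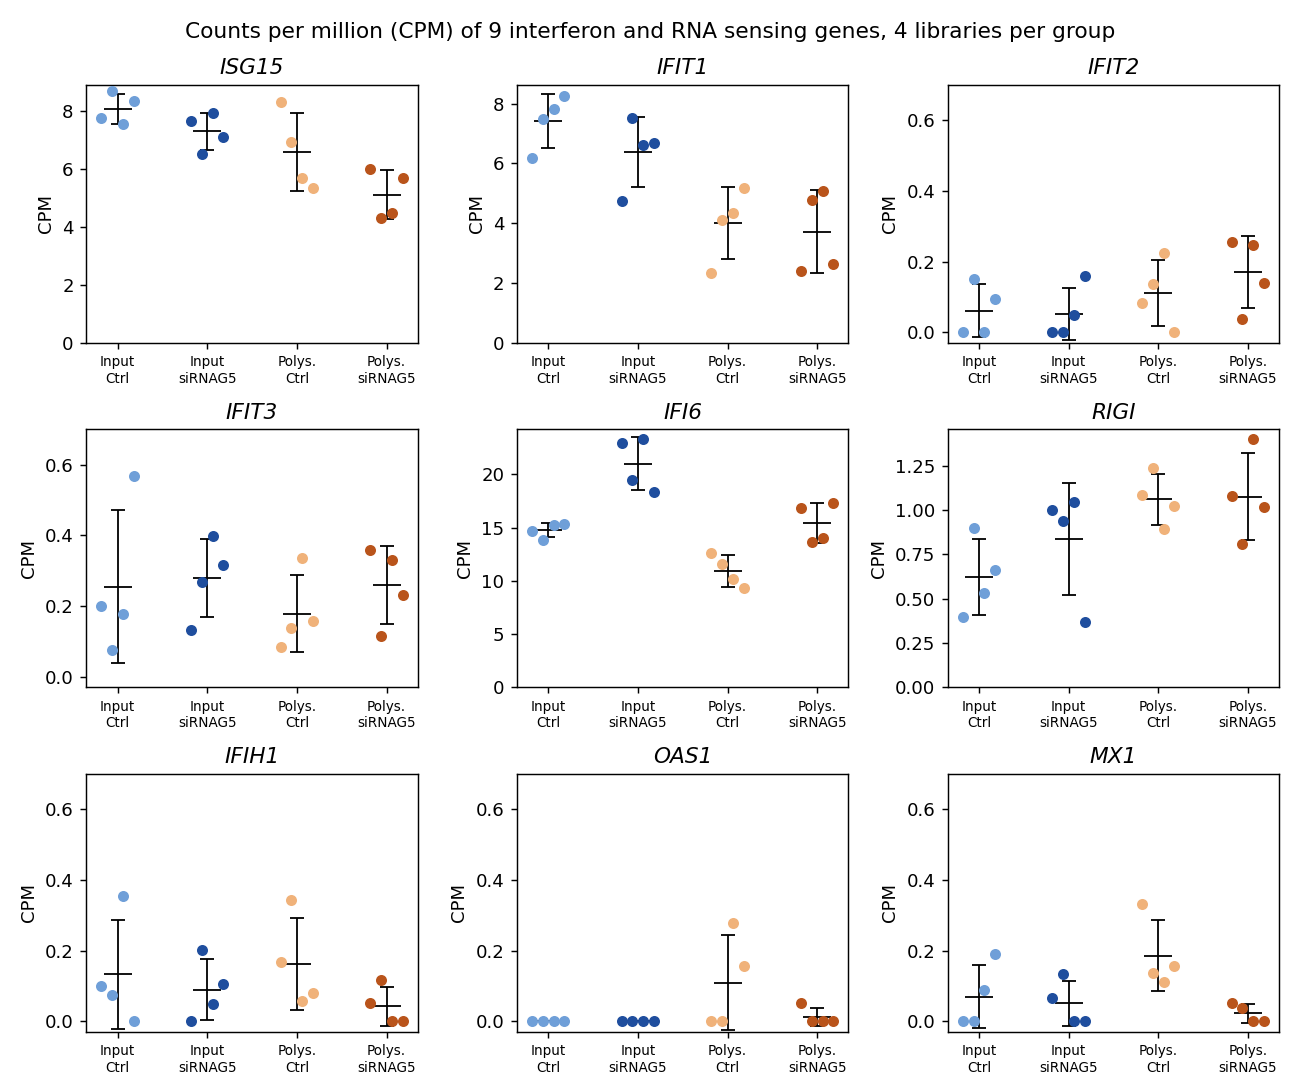
Level (CPM, y axis) of each of the 9 genes in the 4 groups (x axis), with 1 point per library, the mean as a horizontal line and the SD as bars; axes differ between panels. IFI6 is the gene whose siRNAG5 points lie above all Ctrl points in both fractions, while IFIT2, IFIT3, IFIH1, OAS1 and MX1 stay below 0.6 CPM in every library.

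The cytoplasmic sensors came first in the pathway. RIGI, which recognizes RNA with a 5′ triphosphate, lies on chromosome 9 (32455302 to 32526208, GRCh38, minus strand). It had 4, 12, 6 and 7 reads in Input Ctrl 1 to 4 and 15, 14, 21 and 7 reads in Input siRNAG5 1 to 4. As CPM these were 0.398, 0.898, 0.533 and 0.663 against 0.999, 0.939, 1.05 and 0.368. The first 3 siRNAG5 libraries were above every Ctrl library and the fourth was below all of them, so the groups overlapped. The log2 FC of RIGI in Input was 0.38 (SE 0.39, 95% interval -0.41 to 1.18, adjusted p = 0.464, edgeR). In Polysome, RIGI was at 1.08, 1.24, 0.893 and 1.02 CPM in Ctrl and at 1.08, 0.808, 1.40 and 1.01 CPM in siRNAG5. The Polysome groups overlapped along most of their range, with a log2 FC of 0.07 (SE 0.27, 95% interval -0.53 to 0.67, adjusted p = 0.901, edgeR). The upper bounds correspond to a 2.27-fold level in Input and a 1.59-fold level in Polysome, so the intervals do not exclude rises up to these sizes.

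IFIH1, the sensor of long double-stranded RNA (chromosome 2, 162267074 to 162318684, minus strand), was at the edge of detection. It had 1, 1, 4 and 0 reads in Input Ctrl, 0, 3, 1 and 2 in Input siRNAG5, 2, 5, 1 and 1 in Polysome Ctrl and 1, 3, 0 and 0 in Polysome siRNAG5. The values overlapped in both fractions, and the gene did not pass the filter on low counts. A count of 0 allows up to 3 reads, which is 0.115 to 0.298 CPM depending on the library, and this limit covers counting error only. Of the other nucleic acid sensors, 11 genes, TLR7, TLR9 and AIM2 had no read in the 16 libraries and 7 had at most 3 reads in any library (the 3 without a read included). The only 2 sensors of that list that were tested, EIF2AK2 and ZC3HAV1, encode the RNA-activated kinase PKR and the antiviral protein ZAP. EIF2AK2 was at 8.88 ± 1.79 CPM in Input Ctrl and 8.38 ± 0.457 CPM in Input siRNAG5 (log2 FC -0.08, SE 0.14, adjusted p = 0.668, edgeR).

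Interferon genes themselves were not detected. None of the 21 interferon genes examined, of the alpha, beta, other type I, gamma and lambda kinds, had a read in any of the 16 libraries, which hold 258134578 reads on genes together. A count of 0 in that total allows 0.0116 CPM for each gene, before TMM scaling. Interferon alpha genes are near-identical copies, and reads that align to more than 1 place were not counted, so for these genes a count of 0 is less informative than for IFNB1. The libraries were made from polyadenylated RNA, and in bulk RNA fewer responding cells and less RNA per cell cannot be told apart.

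Among the interferon-stimulated genes, ISG15 encodes a ubiquitin-like protein that is conjugated to other proteins (chromosome 1, 1001138 to 1014540, plus strand). It had 7.76, 8.68, 7.56 and 8.34 CPM in Input Ctrl 1 to 4, from 78, 116, 85 and 88 reads, and 7.66, 6.51, 7.92 and 7.10 CPM in Input siRNAG5 1 to 4, from 115, 97, 159 and 135 reads. Both ranges overlapped, and 2 siRNAG5 libraries were below all Ctrl libraries. The log2 FC in Input was -0.13 (SE 0.13, 95% interval -0.39 to 0.12, adjusted p = 0.429, edgeR). In Polysome, ISG15 was at 8.33, 6.94, 5.69 and 5.35 CPM in Ctrl and at 5.995, 4.31, 4.495 and 5.67 CPM in siRNAG5. Here 2 siRNAG5 libraries were below all Ctrl libraries, and the other two fell within the Ctrl range. The log2 FC in Polysome was -0.32 (SE 0.20, 95% interval -0.77 to 0.12, adjusted p = 0.328, edgeR). In both fractions the interval reached to a 1.09-fold level at most, so no larger rise of ISG15 lay within it.

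IFIT1, IFIT2 and IFIT3 lie next to each other on chromosome 10, within 89283694 to 89406487, and encode tetratricopeptide repeat proteins that bind viral RNA and hinder its translation. IFIT1 was at 6.17, 7.48, 7.83 and 8.24 CPM in Input Ctrl and at 4.73, 7.51, 6.62 and 6.68 CPM in Input siRNAG5. One siRNAG5 library lay below all Ctrl libraries and the others lay inside the Ctrl range. The log2 FC of IFIT1 was -0.20 in Input (SE 0.15, 95% interval -0.50 to 0.09, adjusted p = 0.287, edgeR). In Polysome it was at 2.33, 4.12, 4.35 and 5.19 CPM in Ctrl and at 2.41, 4.77, 5.07 and 2.63 CPM in siRNAG5, with a log2 FC of -0.05 (SE 0.30, 95% interval -0.71 to 0.60, adjusted p = 0.934, edgeR). All 4 siRNAG5 values lay inside the Ctrl range, and leaving out single libraries turned the sign of this small value.

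The neighbours of IFIT1 were close to 0. IFIT2 had 0, 2, 0 and 1 reads in Input Ctrl, 0, 0, 1 and 3 in Input siRNAG5, 1, 2, 4 and 0 in Polysome Ctrl and 5, 1, 6 and 3 in Polysome siRNAG5. IFIT3 had 2, 1, 2 and 6 reads in Input Ctrl, 2, 4, 8 and 6 in Input siRNAG5, 1, 2, 6 and 2 in Polysome Ctrl and 7, 3, 8 and 5 in Polysome siRNAG5. Both genes overlapped between Ctrl and siRNAG5 in both fractions and did not pass the filter on low counts. Scaled for depth, the group means of IFIT3 were 0.255 ± 0.216 and 0.279 ± 0.111 CPM in Input Ctrl and siRNAG5 and 0.178 ± 0.109 and 0.259 ± 0.110 CPM in Polysome Ctrl and siRNAG5 (SD, n = 4), and those of IFIT2 were at most 0.170 ± 0.103 CPM, in Polysome siRNAG5.

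IFI6, a small membrane protein of mitochondria and the endoplasmic reticulum with antiviral and survival functions, was the exception (chromosome 1, 27666064 to 27672212, minus strand). It had 148, 185, 171 and 162 reads in Input Ctrl and 345, 290, 468 and 349 reads in Input siRNAG5. As CPM these were 14.7, 13.8, 15.2 and 15.4 against 23.0, 19.5, 23.3 and 18.4. Every siRNAG5 library was above every Ctrl library. IFI6 rose in Input with a log2 FC of 0.52 (SE 0.10, 95% interval 0.31 to 0.73, adjusted p = 1.7e-04, edgeR), a 1.43-fold level.

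In Polysome, IFI6 was at 12.7, 11.5, 10.2 and 9.28 CPM in Ctrl and at 16.8, 13.7, 14.1 and 17.3 CPM in siRNAG5. Again no library overlapped. The log2 FC was 0.54 (SE 0.16, 95% interval 0.19 to 0.89), but the adjusted p of 0.0567 (edgeR) missed the threshold of 0.05. It passed with DESeq2 (log2 FC 0.51, adjusted p = 0.0354), with all 16 libraries in one fit (adjusted p = 0.00834, edgeR) and with 1 surrogate variable (adjusted p = 2.4e-04, edgeR). In Input, without Ctrl 3 and 4, the libraries with liver markers, the log2 FC was 0.57 (adjusted p = 0.0023, edgeR), and without Ctrl 1 and 2 it was 0.48 (adjusted p = 0.0117, edgeR), which is under the fold limit of 0.5. Both fits were chosen after the data were seen. The Input value was also under that limit without Input Ctrl 2 (0.49), without Input siRNAG5 1 (0.48) and without Input siRNAG5 3 (0.47), with adjusted p-values of at most 0.00162 in these 3 fits (edgeR).

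OAS1 and MX1 are further standard readouts. OAS1 encodes an enzyme that makes 2-5A, a second messenger of antiviral defence (chromosome 12, 112905856 to 112933219, plus strand), and MX1 a dynamin-like antiviral GTPase (chromosome 21, 41420020 to 41470071, plus strand). OAS1 had no read in the 8 Input libraries, 0, 0, 5 and 2 reads in Polysome Ctrl and 1, 0, 0 and 0 in Polysome siRNAG5. The 83779883 reads on genes of the 4 Input siRNAG5 libraries allow 0.0358 CPM, before TMM scaling, for a gene with no read. MX1 had 0, 0, 1 and 2 reads in Input Ctrl, 1, 2, 0 and 0 in Input siRNAG5, 4, 2, 2 and 2 in Polysome Ctrl and 1, 1, 0 and 0 in Polysome siRNAG5. In Polysome its Ctrl libraries were all above its siRNAG5 libraries, by single reads, and the gene did not pass the filter on low counts. The 17 reads of OAS1 and MX1 in Polysome Ctrl lay in libraries with 87.6 to 182 CPM of liver markers, and the 3 reads in Polysome siRNAG5 in libraries with at most 1.06 CPM. In Input Ctrl, the 3 reads lay in libraries 3 and 4, which also held liver markers, and libraries 1 and 2 had none. Of the other pathway genes, 13 had reads in the Ctrl groups and none in siRNAG5, and 0 had reads in siRNAG5 alone. The 3 with the most such reads were PARP14 (8 and 12 reads in Input and Polysome Ctrl), XAF1 (3 and 10 reads) and CCL5 (0 and 8 reads), which are named after their values were seen. The part of the liver and blood signal in these low counts was not tested. The share of all genes with reads in Ctrl alone or in siRNAG5 alone was not computed, so the counts of 13 and 0 have no background. Among the 13, ZBP1, CXCL9 and IL1B held 1 read each.

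**Figure D2:**
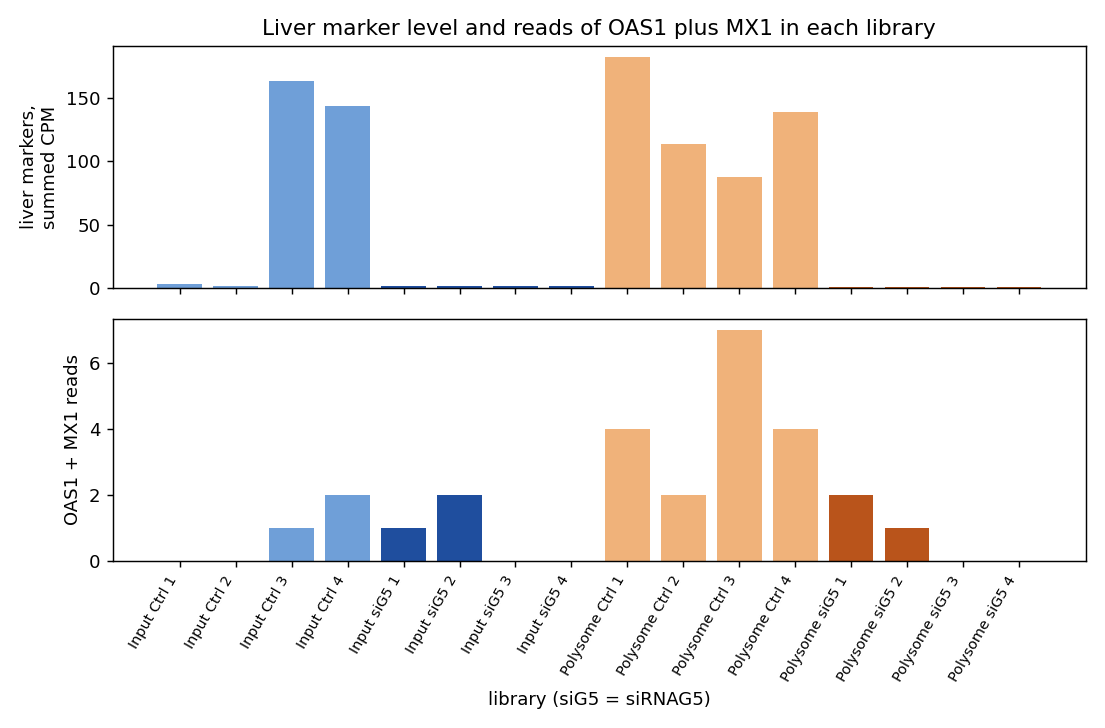
Summed level of 23 liver markers in CPM (upper panel) and summed reads of OAS1 and MX1 (lower panel) in each of the 16 libraries (x axis). The 6 libraries with liver markers above 80 CPM hold 20 of the 26 OAS1 and MX1 reads. Of these, 7 are in Polysome Ctrl 3, which has the lowest liver level of the 6 (87.6 CPM). Of the other low members, IFIT2 and IFIT3 had 7 and 11 reads in Polysome Ctrl and 15 and 23 in Polysome siRNAG5. IFIH1 had 9 and 4.

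Taking the 9 genes together, 4 passed the filter on low counts in each fraction (ISG15, IFIT1, IFI6 and RIGI). A gene was called when its adjusted p was below 0.05 and its log2 FC exceeded 0.5 in size. In Input 1 of the 4 tested members was called higher (25.0%), which was IFI6, and 0 were called lower. Of all 14134 genes tested, 10.5% were called higher and 6.02% lower. In Polysome 0 were called in either direction (none had an unadjusted p below 0.05 by edgeR apart from IFI6, at 0.00562), beside 3.95% of 14420 genes called higher and 4.00% called lower. The Polysome background itself varied from 0.517% to 10.9% called higher over the alternatives. The median log2 FC of the 4 tested members was 0.12 in Input and 0.01 in Polysome, beside 0.04 and 0.03 over all genes tested.

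**Figure D3:**
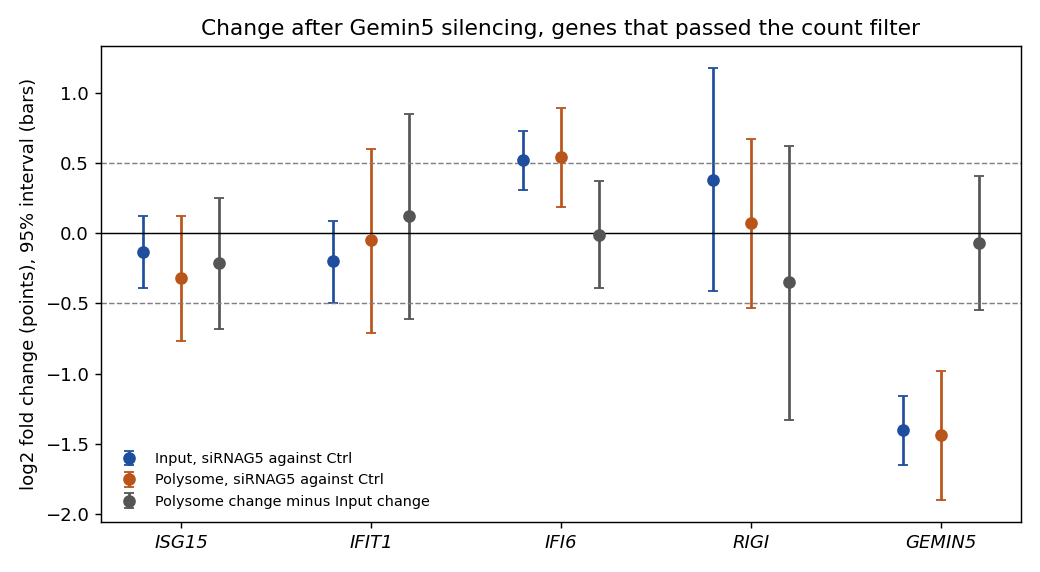
Log2 FC (y axis, points) with 95% intervals (bars) for the 4 members that passed the count filter and for GEMIN5, for siRNAG5 against Ctrl in Input and in Polysome and for the difference between these changes; dashed lines mark 0.5 in either direction. The interval of IFI6 lies above 0 in both fractions (0.31 to 0.73 and 0.19 to 0.89), those of ISG15, IFIT1 and RIGI include 0, and GEMIN5 lies below -0.9 in both.

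Whether the change in Polysome differed from that in Input was tested as an interaction over the 16 libraries. The difference of log2 FC was -0.01 for IFI6 (95% interval -0.39 to 0.37), -0.21 for ISG15 (-0.68 to 0.25), 0.12 for IFIT1 (-0.61 to 0.85) and -0.35 for RIGI (-1.33 to 0.62), with adjusted p-values of at least 0.892 (edgeR). No member was called, beside 0% called higher and 0% called lower of 14958 genes tested by edgeR, of which 1089 had an unadjusted p below 0.05. DESeq2 called 18 genes higher and 11 lower, and edgeR with 1 surrogate variable called 78 higher and 297 lower (28 and 29 with no filter on low counts), with no member among them. The intervals leave room for differences of more than 0.3 in log2 FC in either direction for IFI6, and of more for IFIT1 and RIGI.

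The distribution between fractions was compared within each condition on the same scale, which is relative to the other transcripts of a library. Reads with several alignments, which were left out of the counts, differed between fractions. They made up 4.88 to 5.43% in Input Ctrl, 5.3 to 6.04% in Input siRNAG5, 21.2 to 32.8% in Polysome Ctrl and 26.3 to 42.4% in Polysome siRNAG5. Their part in the values below was not tested. The study's methods describe Input and Polysome RNA as drawn from the same lysates, but the labels do not say that a number marks a lysate, so the libraries were fitted as unpaired; with the replicate number as a block the counts of members called in this and the preceding comparison did not move. IFIT1 was lower in Polysome than in Input in both conditions, by log2 FC -0.89 in Ctrl (SE 0.25, adjusted p = 0.00762, edgeR) and -0.77 in siRNAG5 (SE 0.24, adjusted p = 0.011, edgeR). ISG15 was at -0.30 in Ctrl (SE 0.16, adjusted p = 0.131, edgeR) and fell by 0.52 on the log2 scale in siRNAG5 (SE 0.16, adjusted p = 0.00825, edgeR). That last call was lost under 7 of 12 alternatives, over which the value ranged from -0.60 to -0.41. The values of IFI6 were -0.44 and -0.45, with adjusted p-values of 0.0107 and 0.005 (edgeR) and a size under the fold limit. RIGI was the member with higher values in Polysome, at 0.72 (SE 0.36, adjusted p = 0.106, edgeR) and 0.37 (SE 0.30, adjusted p = 0.307, edgeR). In Ctrl 0 of the 4 tested members were called higher and 1 lower (25.0%), beside 19.4% and 18.2% of all genes tested. In siRNAG5 0 of the 4 were called higher and 2 lower (50.0%), beside 21.5% and 25.4%. The liver markers differed between Input Ctrl 1 and 2 and the Polysome Ctrl libraries, and their part in the Ctrl values was not tested. The Ctrl and siRNAG5 comparisons share no library with each other, but each shares its libraries with the comparisons above.

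The rest of the pathway was described by 9 lists with 154 genes, of which 75 were tested in Input and 79 in Polysome. In Input 17 were called higher and 2 lower (22.7% and 2.67% of those tested), and in Polysome 7 higher and 1 lower (8.86% and 1.27%). These shares stand beside the background of 10.5% and 6.02% in Input and 3.95% and 4.00% in Polysome. Their median log2 FC was 0.12 in Input and 0.09 in Polysome. The count in Input was 9 higher with all 16 libraries in one fit, in which 6.62% of all genes were called higher. Without Input Ctrl 3 and 4, the libraries with liver markers, 18 were called higher and 3 lower (beside 9.97% and 6.64% of all genes), and without Input Ctrl 1 and 2 the counts were 13 and 2 (beside 6.87% and 4.92%). In Polysome the count of 7 higher was 1 without Polysome Ctrl 2, 2 without Polysome Ctrl 4, 4 without Polysome siRNAG5 1 and 14 with 1 surrogate variable. The share of all genes called higher moved in the same fits, to 0.517%, 1.77%, 1.81% and 10.9%.

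Of the genes that relay the signal of the sensors, 1 of 17 was called higher in Input (5.88%, beside 10.5% of all genes), and 1 higher and 1 lower of 18 in Polysome (5.56% each, beside 3.95% and 4.00%). STING1, the adaptor of DNA sensing, rose in Input (log2 FC 0.51, SE 0.17, adjusted p = 0.0195, edgeR), from 3.19 ± 0.414 to 4.49 ± 0.498 CPM. Without Input Ctrl 1 and 2 its Input log2 FC was 0.44 (adjusted p = 0.155, edgeR), which was not called, and without Input Ctrl 3 and 4 it was 0.58 (adjusted p = 0.0491, edgeR). IRF3, the transcription factor that sensors activate, fell in Polysome (log2 FC -0.59, SE 0.14, adjusted p = 0.0272, edgeR), from 103 ± 4.59 to 66.3 ± 9.49 CPM. TRAF3, a ubiquitin ligase between MAVS and the IRF3 kinases, rose in Polysome (log2 FC 0.59, SE 0.15, adjusted p = 0.0352, edgeR).

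Of 13 tested genes of interferon receptors and JAK-STAT signalling, 1 was called higher in Input (7.69%, beside 10.5% of all genes) and 0 in Polysome (beside 3.95%). This was the receptor kinase gene TYK2 (log2 FC 0.50, SE 0.10, adjusted p = 2.2e-04, edgeR), which was under the fold limit without Input Ctrl 1 and 2, at 0.43. IRF9, the DNA-binding subunit of the factor that type I interferon activates, had 0, 2, 1 and 0 reads in the 4 groups. Among the brakes, 2 of 7 tested genes were called higher in Input (28.6%, beside 10.5% of all genes) and 0 of 8 in Polysome (beside 3.95%). The phosphatase gene PTPN6 rose from 0.771 ± 0.301 to 1.82 ± 0.0634 CPM in Input (log2 FC 1.27, SE 0.29, adjusted p = 9.3e-04, edgeR). Its log2 FC in Polysome was -0.08 (SE 0.36, adjusted p = 0.911, edgeR). Of 79 other pathway genes tested for a difference between the fractions, 0 were called, beside 0% of all 14958 genes (edgeR). NLRX1, a mitochondrial protein reported to restrain MAVS, rose in Input with a log2 FC of 0.70 (SE 0.15, adjusted p = 3.4e-04, edgeR), beside 0.55 in Polysome (SE 0.17, adjusted p = 0.0608, edgeR). USP18, which removes ISG15 from proteins and is itself interferon-stimulated, was at 14.0 ± 1.15 CPM in Input Ctrl and 11.9 ± 0.768 in Input siRNAG5 (log2 FC -0.23, SE 0.11, adjusted p = 0.103, edgeR).

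Of the 4 genes listed for ISG15 conjugation, 3 were tested. In Input 2 were called higher (66.7%, beside 10.5% of all genes) and in Polysome 1 (33.3%, beside 3.95%). The conjugating enzyme gene UBE2L6 rose in both fractions, from 5.98 ± 0.602 to 10.5 ± 1.07 CPM in Input (log2 FC 0.82, SE 0.13, adjusted p = 9.4e-06, edgeR) and from 5.69 ± 0.947 to 9.92 ± 1.60 CPM in Polysome (log2 FC 0.84, SE 0.19, adjusted p = 0.0227, edgeR). HERC6, which encodes a HERC family ligase, rose in Input (log2 FC 0.61, SE 0.19, adjusted p = 0.0104, edgeR). Whether HERC6 attaches ISG15 in these cells was not tested. The ligase gene HERC5 was not called in Input (log2 FC 0.15, SE 0.12, adjusted p = 0.351, edgeR), and its groups overlapped. UBA7, the activating enzyme gene of the same cascade, had 2, 4, 4 and 3 reads in Input Ctrl, Input siRNAG5, Polysome Ctrl and Polysome siRNAG5. OAS3, a larger relative of OAS1, was at a log2 FC of -0.31 in Input (SE 0.32, adjusted p = 0.463, edgeR) and 0.22 in Polysome (SE 0.28, adjusted p = 0.657, edgeR).

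Other interferon-stimulated effectors numbered 51, of which 28 were tested in Input and 30 in Polysome. In Input 8 were called higher and 2 lower (28.6% and 7.14%, beside 10.5% and 6.02% of all genes). In Polysome 4 were called higher and 0 lower (13.3% and 0%, beside 3.95% and 4.00%). LGALS3BP, a secreted glycoprotein that binds galectins, rose from 12.7 ± 1.16 to 30.5 ± 3.63 CPM in Input (log2 FC 1.27, SE 0.10, adjusted p = 2.2e-10, edgeR) and from 5.42 ± 1.06 to 10.9 ± 2.08 CPM in Polysome (log2 FC 1.05, SE 0.20, adjusted p = 0.013, edgeR). IFI35 rose in Input (log2 FC 1.03, SE 0.17, adjusted p = 1.5e-05, edgeR), as did the exonuclease gene ISG20 (log2 FC 0.87, SE 0.23, adjusted p = 0.00315, edgeR).

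IFITM1, IFITM2 and IFITM3, which hinder the entry of enveloped viruses, rose in both fractions. Their log2 FC in Input were 0.62, 0.74 and 0.77 (SE 0.12, 0.08 and 0.11, adjusted p = 1.5e-04, 2.4e-08 and 1.9e-06, edgeR). In Polysome they were 0.91, 0.87 and 1.03 (SE 0.16, 0.19 and 0.23, adjusted p = 0.0102, 0.0192 and 0.0222, edgeR). These 3 genes are close copies of each other, so reads they share were left out of the counts or could be split between them. The 2 effectors called lower in Input were the TRIM family genes TRIM14 and TRIM26 (log2 FC -0.67 and -0.51, SE 0.16 and 0.13, adjusted p = 0.00129 and 0.00317, edgeR).

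Over all lists, the members included, 84 genes were not tested in Input. Their mean level was higher in siRNAG5 for 20, lower for 31 and equal for 33. Apart from DTX3L (0.714 CPM in both groups), the 33 with equal means had no read in Input. Of the 84 genes, 3 had no overlap between the groups, all higher in siRNAG5: SOCS3, PARP10 and GBP1. The share of all untested genes without overlap was not computed, so this count has no background. These genes had few reads, and the Input siRNAG5 libraries were deeper. Among untested effectors, GBP1, an interferon-induced GTPase, had 3 reads in Input Ctrl and 21 in Input siRNAG5, and SAMD9 had 5 and 20 in Input and 4 and 27 in Polysome. RSAD2 (viperin) had 2 reads in Input Ctrl and 1 in Input siRNAG5, IFI44 had 2 in each, MX2 had 1 and 0, and RTP4 had none anywhere. IFIT5, a relative of IFIT1, was at 13.1 ± 0.860 and 11.9 ± 1.88 CPM in Input Ctrl and siRNAG5 (log2 FC -0.11, SE 0.12, adjusted p = 0.487, edgeR). These genes are named after their values were seen.

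Of 19 inflammatory cytokine and NF-kB target genes, 3 were tested, and IL1A had no read. Among the untested genes, the chemokine genes CXCL8 and CCL20 had 1 read each in Input Ctrl and 15 and 13 in Input siRNAG5. In Polysome they had 13 and 2 reads in Ctrl and 31 and 23 in siRNAG5, with up to 18 and 13 in a single siRNAG5 library. Their Input means rose from 0.0237 ± 0.0474 and 0.0222 ± 0.0445 to 0.216 ± 0.114 and 0.196 ± 0.215 CPM, with overlapping groups. The means of CCL2, CXCL1 and CXCL2 were lower in Input siRNAG5 (0.165, 0.209 and 0.174 CPM) than in Input Ctrl (0.302, 0.274 and 0.232 CPM). That of CXCL3 was 0.556 CPM in Input siRNAG5 against 0.506 CPM in Input Ctrl. CXCL10, IL6 and TNF had 3, 0 and 2 reads in Input Ctrl and 0, 2 and 1 in Input siRNAG5. NFKB2, which encodes the precursor of the p52 subunit of the alternative NF-kB pathway, rose from 12.1 ± 2.79 to 26.4 ± 3.68 CPM in Input (log2 FC 1.15, SE 0.13, adjusted p = 2.6e-08, edgeR) and with a log2 FC of 1.01 in Polysome (SE 0.25, adjusted p = 0.0336, edgeR). Its partner RELB rose in Input (log2 FC 0.53, SE 0.15, adjusted p = 0.00519, edgeR). NFKBIA, a target of the classical pathway, was at 13.9 ± 1.00 and 14.3 ± 1.03 CPM in Input Ctrl and siRNAG5 (log2 FC 0.05, SE 0.11, adjusted p = 0.737, edgeR).

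**Figure D4:**
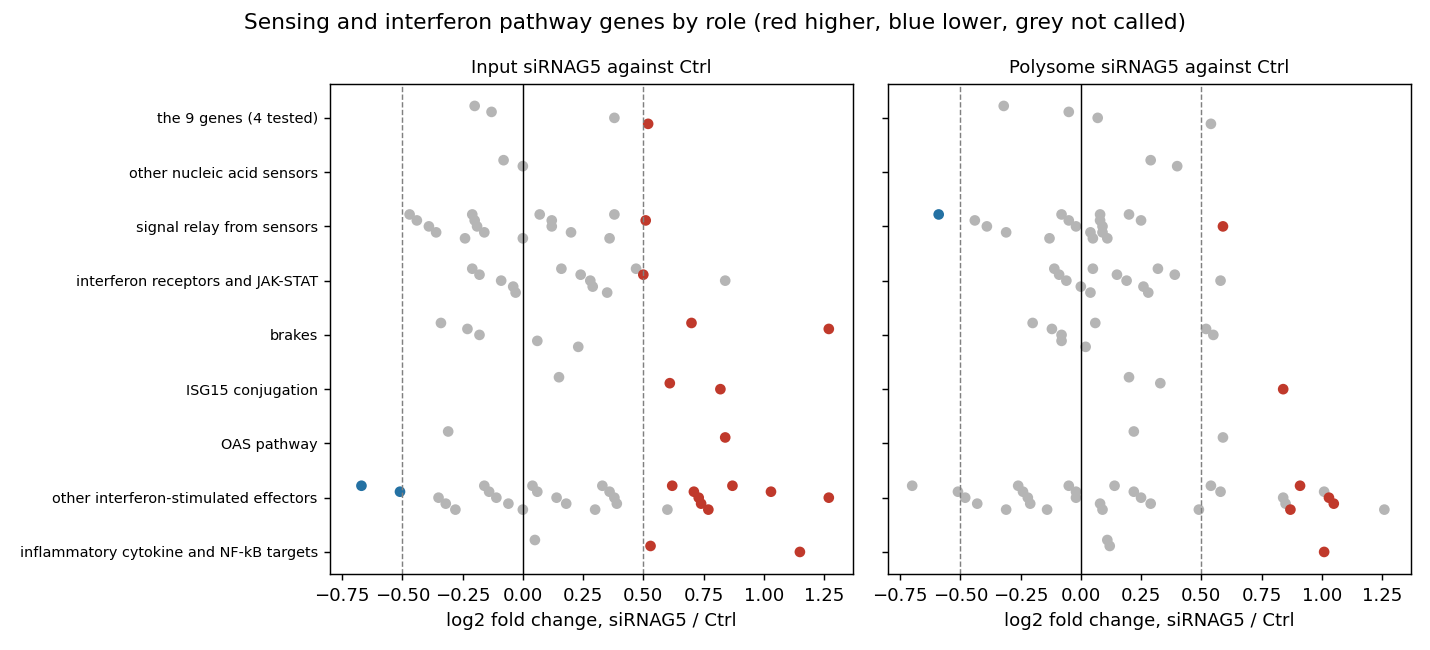
Log2 FC of siRNAG5 against Ctrl (x axis) in Input (left) and Polysome (right) for every tested gene of each list (rows), with 1 point per gene; red was called higher, blue lower and grey not called. In Input 17 genes of the other lists are red and 2 blue, in Polysome 7 are red and 1 blue, and IFI6 is the red point of the top row in Input.

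The promoter element was present in 57.1% of the 56 windows of the other effectors and in none of the 18 windows of receptors and JAK-STAT genes. The members that carry it divided in their response, with IFI6 called higher in Input, ISG15 and IFIT1 not called, and IFIT3, IFIH1 and MX1 at or near 0 reads.

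The 4 tested members did not follow one another across libraries. With each gene centred on its mean in its fraction, Pearson's r over the 16 libraries was -0.58 between IFIT1 and IFI6, -0.52 between ISG15 and IFIT1 and 0.35 between IFI6 and RIGI. These are descriptions over libraries that share their groups and depth. The 5 genes with the highest r to the mean of the 4 members, out of 14954, were a gene listed as ENSG00000263731 (0.784), RRAGC (0.735), SLIT1 (0.702), COL27A1 (0.696) and CAPS2 (0.694).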

How the data were processed

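Read counts per gene were deposited by the authors as whole numbers, 1 table per library. Per the labels and the study's methods, stranded libraries of polyadenylated RNA were aligned to GRCh38 with STAR 2.5.3a and counted with QoRTs, and reads with several alignments or overlapping several genes were left out. Groups were taken from the labels. Gene symbols were matched for 57532 of 58302 identifiers. The 9 members and the other lists were chosen with earlier results of these data known.

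Counts were fitted with the quasi-likelihood test of edgeR 4.0.16 (R 4.3.3) after filterByExpr and TMM scaling, separately for Input, for Polysome and for all 16 libraries (interaction and fractions), with Benjamini-Hochberg adjustment over all genes tested. Genes were called at an adjusted p below 0.05 and a log2 FC above 0.5 in size. SE is the log2 FC divided by the root of F, and intervals are 95%. DESeq2 1.42.0, sva 3.50.0, RLE size factors, no filter, a replicate block and leaving out libraries were alternatives. The functions were tested on simulated data. Named genes were the 9 members, GEMIN5, at most 4 called genes with the largest change per list and fraction, and the 5 genes most like the members. Genes named beyond this rule, such as EIF2AK2, USP18, IRF9, UBA7, HERC5, OAS3, IFIT5, NFKBIA, untested effectors and the cytokine genes, were chosen after their values were seen. Depth was 11145324 to 24511299 reads on genes per library. The values of 2 genes of the lists are not reported here; the list counts include them.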

Additional observations from a re-analysis of the deposited data

Results flagged for a closer look

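In groups of 4 libraries, a value was singled out when its gap to the nearest other value took a larger share of the whole range of the group than the 95% critical value of Dixon's test, which chance alone passes in about 5% of groups. Among the 42 groups of the 9 members, GEMIN5 and the liver markers that were examined, 2 values met this. RIGI was at 0.368 CPM (7 reads) in Input siRNAG5 4, while the other 3 libraries of that group lay between 0.939 and 1.05 CPM. OAS1 was at 0.0512 CPM in Polysome siRNAG5 1, which is 1 read, and at 0 in the other 3 libraries of that group.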

How the results depend on the processing

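ISG15, IFIT1 and RIGI were not called in siRNAG5 against Ctrl under any alternative in either fraction, and IFI6 kept its direction under all of them. The log2 FC of IFI6 ranged from 0.47 to 0.58 in Input and from 0.46 to 0.62 in Polysome. The call of 1 member in Input became 0 without Input Ctrl 1 and 2 together and ranged from 0 to 1 when single libraries were left out, because its value lies close to the fold limit. In Polysome 1 member was called higher with DESeq2, 1 with all 16 libraries in one fit and 1 with 1 surrogate variable, which was IFI6 each time.

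When one fit held all 16 libraries, 9 other pathway genes were called higher and 1 lower in Input. In that fit 6.62% and 5.38% of all genes were called higher and lower. The number called lower in Input ranged from 1 to 3 without single libraries. In Polysome 14 were called higher and 3 lower with 1 surrogate variable, 2 lower with DESeq2, 2 lower with all 16 libraries in one fit and 4 lower with no filter on low counts. The shares of all genes in Polysome moved too, to 10.9% higher and 9.72% lower with 1 surrogate variable. They moved to 7.64% lower with DESeq2 and 10.2% lower with all 16 libraries, but to 3.44% lower with no filter. Without single Polysome libraries the counts ranged from 1 to 7 higher and from 0 to 1 lower. The members called lower in Polysome against Input in siRNAG5 were 1 with DESeq2, 1 with RLE size factors and 1 with no filter, and from 1 to 3 without single libraries. The cause of these shifts was not tested.

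Small values changed sign. The IFI6 difference between fractions was 0.02 with DESeq2, 0.02 with RLE size factors, 0.03 with no filter and 0.00 with 1 surrogate variable, and from -0.08 to 0.09 without single libraries. Without single libraries, the log2 FC in Polysome ranged from -0.23 to 0.11 for IFIT1 and from -0.08 to 0.20 for RIGI, and the difference between fractions from -0.04 to 0.27 for IFIT1 and from -0.16 to 0.05 for GEMIN5.

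With the replicate block, 1 member was called higher in Input and 0 in Polysome, and 1 other pathway gene was called lower in Input in place of 2. Same-numbered libraries did not deviate together in every pair (correlations from -0.53 to 0.483 between the conditions in Polysome and from -0.207 to 0.222 between the fractions), and libraries did not all correlate best with their own number, so the numbers were not used to pair them, although the study's methods describe Input and Polysome as drawn from the same lysates. The block changed no other count of members. Depth limits the low genes: IFIT2, IFIT3, IFIH1, OAS1 and MX1 did not pass the filter (with no filter, none was called in siRNAG5 against Ctrl), and a library with no read allows up to 0.298 CPM.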
